A study of Mus musculus with 12 samples.

Results

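Binding of the Mediator subunits MED1 and MED24 was compared in untreated mouse embryonic stem cells. The material was 4 of the 12 samples of the series, the MED1 and MED24 chromatin immunoprecipitation (ChIP-seq) libraries of clones a and b at 0 h. A further 4 libraries of the same clones and proteins, taken after 2 h of 250 nM 4-hydroxytamoxifen (4OHT), served for a check, and the 4 input samples were not analysed here. Every sample came from E14tg2a cells of 129SV background that carry a cRAF-ErT2 cassette, a RAF kinase fused to a hormone-binding domain that 4OHT switches on. All cells had been kept in serum, LIF and 2 µM Chir99021 and then for 24 h in serum and LIF with 250 nM PD173074, an inhibitor of fibroblast growth factor receptors. Chromatin was fixed with 1% formaldehyde for 10 min and with 2 mM disuccinimidyl glutarate. MED1 was precipitated with an antibody to the protein itself, MED24 with an antibody to a FLAG tag. How the tag was placed on MED24 is not given in the sources used here, and protein and antibody cannot be told apart in any comparison below. The clones are the only replicates, so each protein had n = 2.

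The deposited data are 1 list of called peaks per library, so what follows concerns where binding was called and how peaks rank by score within a list, not amounts of protein. Peaks of the 4 lists that overlapped by at least 1 bp were merged into 55607 regions. A region is called MED1-only if both MED1 lists and neither MED24 list had a peak in it, MED24-only in the reverse case, and shared if all 4 lists had one. There were 2353 MED1-only regions, 4.23% of all, 3869 MED24-only regions, 6.96%, and 23255 shared regions, 41.8%. The other 26130 regions were called in 1 list or in a mixture of lists, and of these 16630 were called in a single list.

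Mediator is a large complex that links transcription factors bound at enhancers and promoters to RNA polymerase II. It has a head, a middle and a tail module around a scaffold, and a separable kinase module. MED1 is associated with the middle module and is best known as the subunit that nuclear receptors contact through LXXLL motifs. MED24 belongs to the tail, the part of the complex that many activators touch. In embryonic stem cells Mediator occupies the enhancers and promoters of active genes, including those of the pluripotency factors.

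Promoters with the highest ranked regions of each class are shown for their GC boxes and nuclear receptor hexamers, whose shares by class are given after them. A gene start here is a RefSeq promoter window (GRCm38.p6, the assembly of mm10), 250 bases before to 50 after the start, overlapped by the region. Capitals mark the GC box (GGGCGG, or CCGCCC on the other strand) and the AGGTCA hexamer (TGACCT on the other strand), the core of many nuclear receptor sites; both motifs were searched on both strands and do not overlap each other. The first pair are the windows of the MED1-only regions that ranked highest among those at a gene start, with mean percentiles of 83.5 and 75.2. Gm52510 (chr2:52131488-52131787, plus strand) is a predicted gene, and Clip1 (chr5:123684312-123684611, minus strand) encodes a microtubule plus-end protein.
Gm52510: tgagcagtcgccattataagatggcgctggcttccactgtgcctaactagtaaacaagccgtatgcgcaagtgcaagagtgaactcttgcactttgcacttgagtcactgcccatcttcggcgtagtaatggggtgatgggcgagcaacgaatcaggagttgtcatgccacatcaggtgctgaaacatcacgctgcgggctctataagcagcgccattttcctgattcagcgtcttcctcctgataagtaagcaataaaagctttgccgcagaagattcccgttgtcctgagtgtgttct
Clip1: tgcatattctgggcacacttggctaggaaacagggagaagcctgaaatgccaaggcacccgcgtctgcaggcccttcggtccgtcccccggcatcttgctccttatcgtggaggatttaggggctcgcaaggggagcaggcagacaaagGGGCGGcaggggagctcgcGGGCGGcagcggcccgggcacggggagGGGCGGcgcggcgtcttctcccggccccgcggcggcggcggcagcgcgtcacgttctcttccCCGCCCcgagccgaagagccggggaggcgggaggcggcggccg
The next pair belong to the MED24-only regions that ranked highest among those at a gene start, with mean percentiles of 98.4 and 86.7. Rtbdn (chr8:84946741-84947040, plus strand) encodes retbindin, a riboflavin-binding protein of the retina, and Neurod4 (chr10:130280089-130280388, minus strand) encodes a neuronal basic helix-loop-helix factor.
Rtbdn: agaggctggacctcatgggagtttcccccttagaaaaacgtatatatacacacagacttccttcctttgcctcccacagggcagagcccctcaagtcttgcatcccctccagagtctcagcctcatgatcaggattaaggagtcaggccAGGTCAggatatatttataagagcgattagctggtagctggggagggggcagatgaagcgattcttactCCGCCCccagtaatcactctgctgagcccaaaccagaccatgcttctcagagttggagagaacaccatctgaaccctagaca
Neurod4: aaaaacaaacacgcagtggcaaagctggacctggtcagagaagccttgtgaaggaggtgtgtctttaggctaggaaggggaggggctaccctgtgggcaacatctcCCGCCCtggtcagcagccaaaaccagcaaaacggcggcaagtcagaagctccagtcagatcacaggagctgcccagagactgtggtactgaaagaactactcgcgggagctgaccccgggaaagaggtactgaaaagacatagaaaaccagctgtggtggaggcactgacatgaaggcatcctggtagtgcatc
The last pair belong to the highest ranked shared regions at a gene start. Junb (chr8:84978699-84978998, minus strand) encodes an AP-1 transcription factor and Eapp (chr12:54695845-54696144, minus strand) an E2F-associated phosphoprotein.
Junb: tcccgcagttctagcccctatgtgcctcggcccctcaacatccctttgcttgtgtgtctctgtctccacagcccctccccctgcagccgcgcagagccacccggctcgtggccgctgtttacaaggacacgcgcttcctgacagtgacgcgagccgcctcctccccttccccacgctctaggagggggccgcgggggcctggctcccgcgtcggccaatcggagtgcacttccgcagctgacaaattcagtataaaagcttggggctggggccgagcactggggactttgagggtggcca
Eapp: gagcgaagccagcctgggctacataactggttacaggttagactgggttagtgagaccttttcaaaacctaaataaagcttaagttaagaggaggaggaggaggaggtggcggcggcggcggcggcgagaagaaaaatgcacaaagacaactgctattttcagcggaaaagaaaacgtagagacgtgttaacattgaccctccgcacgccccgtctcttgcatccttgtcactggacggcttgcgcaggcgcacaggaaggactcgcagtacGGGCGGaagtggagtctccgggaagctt
The Clip1 window holds 4 GC boxes and 35 CpG, and the Gm52510 window no GC box and 14 CpG. The Rtbdn window holds 1 GC box, 1 AGGTCA hexamer and 4 CpG, and the MED24-only region overlaps only its last bases. The Neurod4 window holds 1 GC box and 7 CpG, Junb no GC box and 21 CpG, and Eapp 1 GC box and 20 CpG. Single windows thus varied within a class, and only shares over all windows are compared.

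Promoter windows under MED1-only regions resembled those under shared regions in base composition, and windows under MED24-only regions were poorer in CpG. Of the 339 windows under MED1-only regions, 74.9% held a GC box, against 45.2% of the 104 under MED24-only regions and 69.7% of the 10403 under shared regions. Over all 32851 windows the share was 35.7%. The median window had 24 CpG under MED1-only and under shared regions, 8.5 under MED24-only regions and 7 over all windows. The AGGTCA hexamer went the other way: 8.55% of MED1-only, 23.1% of MED24-only and 11.2% of shared windows held it, with 16.3% over all. Of the 19623 windows under no region, which had a median of 3 CpG, 19.5% held it. Several windows can belong to 1 gene, so these shares are descriptions without a test.

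The peak lists themselves were of similar length. MED1 had 38668 peaks (clone a) and 37483 (clone b), and MED24 had 41689 and 38398. MED1 had fewer in each clone, with MED1 minus MED24 at -3021 and -915, while across clones the ranges overlapped (exact two-sided permutation test, p = 0.667). MED1 peaks were slightly wider, with medians of 438 and 439 bp against 410 and 410 bp. They also lay at gene starts more often: 24.6% and 25.1% of MED1 peaks did, against 21.6% and 22.5% of MED24 peaks (24.8% ± 0.360 against 22.0% ± 0.615, SD, n = 2). The groups did not overlap for width or for gene starts, and for both the exact permutation p was 0.333, the smallest that 2 against 2 libraries allow. At 2 h these gaps were not seen: the gene-start shares were 21.9% and 20.8% for MED1 and 23.0% and 20.7% for MED24.

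**Figure D1:**
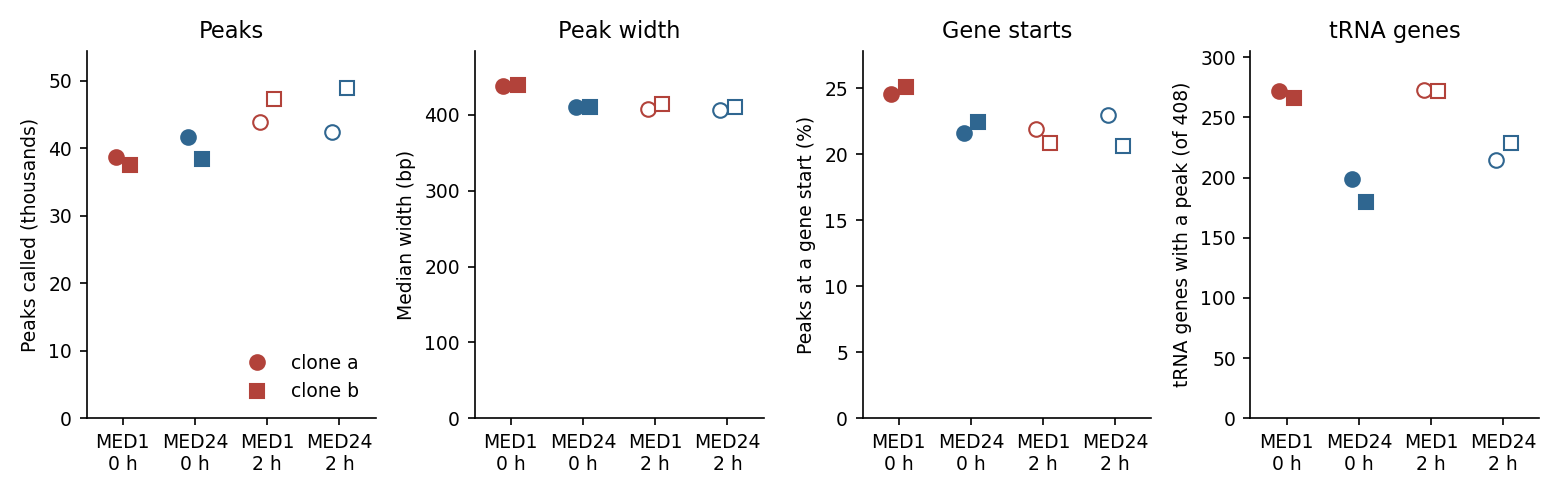
Number of peaks, median peak width in bp, share of peaks at a gene start and number of the 408 annotated tRNA genes with a peak, each from 0; each point is 1 library, circles clone a and squares clone b, filled at 0 h and open at 2 h. At 0 h MED1 and MED24 separate in width, gene-start share and tRNA genes, and at 2 h the separation is kept for tRNA genes.

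Most peaks of either protein had a counterpart in the other, and strong peaks nearly always did. In clone a, 76.2% of MED1 peaks overlapped a MED24 peak, and in clone b 75.1%; of MED24 peaks, 72.1% and 75.2% overlapped a MED1 peak. Overlap between the clones of 1 protein was higher, at 77.4% and 80.2% for MED1 and 77.3% and 84.6% for MED24. Those pairs cross the clones. Between proteins and across clones, 71.8% and 76.4% of MED1 peaks (clones a and b) and 69.9% and 74.4% of MED24 peaks overlapped. Overlap depended on the score. In the lowest scored of 10 equal bins, 40.9% (clone a) and 38.6% (clone b) of MED1 peaks overlapped a MED24 peak of the same clone. In the highest bin 99.5% and 99.5% did. For MED24 the lowest bin gave 43.1% and 49.1% and the highest 98.5% and 98.4%. In the highest bin every peak was found again in the other clone of its own protein. The few peaks there without a counterpart in the other protein therefore repeated between clones. Whether protein or antibody sets them apart cannot be told.

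**Figure D2:**
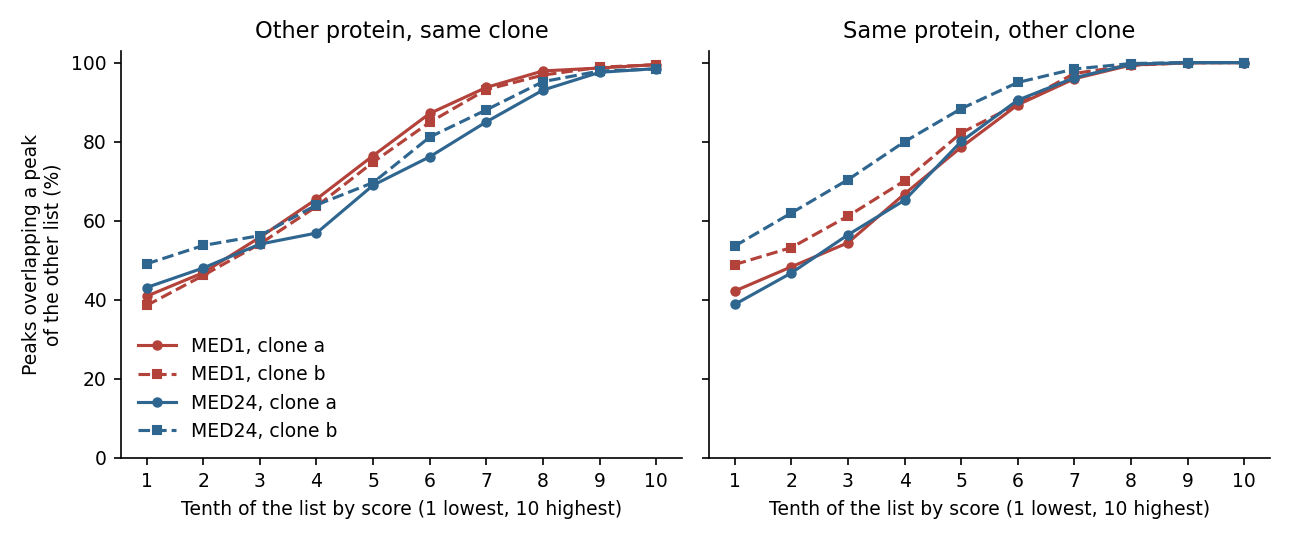
Share of the peaks of each list that overlap a peak of the list named above the panel, in percent, in 10 bins of the list from the lowest to the highest score; colours are proteins, line styles clones. All lines climb from between 38.6% and 53.6% to between 98.4% and 100%.

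Regions called for 1 protein were narrow and low in rank, and MED1-only regions lay closer to binding of the other protein than MED24-only regions did. Rank is given as the percentile of the peak score within its own list. The median MED1-only region was 415 bp wide and stood at percentile 29.7 (clone a) and 29.0 (clone b). The median MED24-only region was 346 bp wide and stood at 39.3 and 34.2. By the mean percentile of the clones, the medians were 28.9 for MED1-only and 35.6 for MED24-only regions. With 20000 peaks per list they were 30.9 and 30.3, so the difference in rank was not kept under that cut. With scores of at least 50 they were 28.5 and 33.1. The cause was not tested. Shared regions were 828 bp wide at the median and stood between 67.6 and 70.1 in the 4 lists. A merged region spans all its peaks, so shared regions are wider by construction, and calling itself depends on the score. The highest peak of a list in a region had median widths of 313 and 308 bp in MED1-only regions. In MED24-only regions it had 289 and 273 bp. In shared regions it had 623 and 612 bp for MED1 and 594 and 559 bp for MED24. The nearest peak of the other protein was 5.887 kb away for the median MED1-only region and 15.1 kb for the median MED24-only region, and it lay within 1 kb for 20.1% and 9.80% of them.

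The classes differed in location. MED1-only regions were at gene starts in 12.6% of cases (289 of 2292, chromosome 18 left out because the promoter table lists none there), MED24-only regions in 2.48% (93 of 3743), shared regions in 34.1% and all merged regions in 18.99%. Far from genes the order was reversed: 17.3% of MED24-only regions lay over 100 kb from any protein-coding gene, against 7.11% of MED1-only, 6.94% of shared and 8.62% of all regions. The gap at gene starts depended on rank. With a mean percentile of at least 50, 34 of 336 MED1-only regions (10.1%) and 13 of 902 MED24-only regions (1.44%) lay at a gene start. At 75 and above it was 2 of 51 (3.92%) and 4 of 152 (2.63%), and at 90 and above 0 of 10 and 1 of 50, so the highest ranked regions of either class were rarely at gene starts. MED1-only regions were also frequent just past genes: 8.51% lay within 5 kb of a 3′ end, against 3.07% of MED24-only, 2.57% of shared and 4.18% of all regions, a measure taken up after the values were seen. The difference past 3′ ends was 5.44 percentage points, and it fell to 0.0972 when each list was held to its 20000 highest scored peaks and to 3.54 without clone a of MED24.

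**Figure D3:**
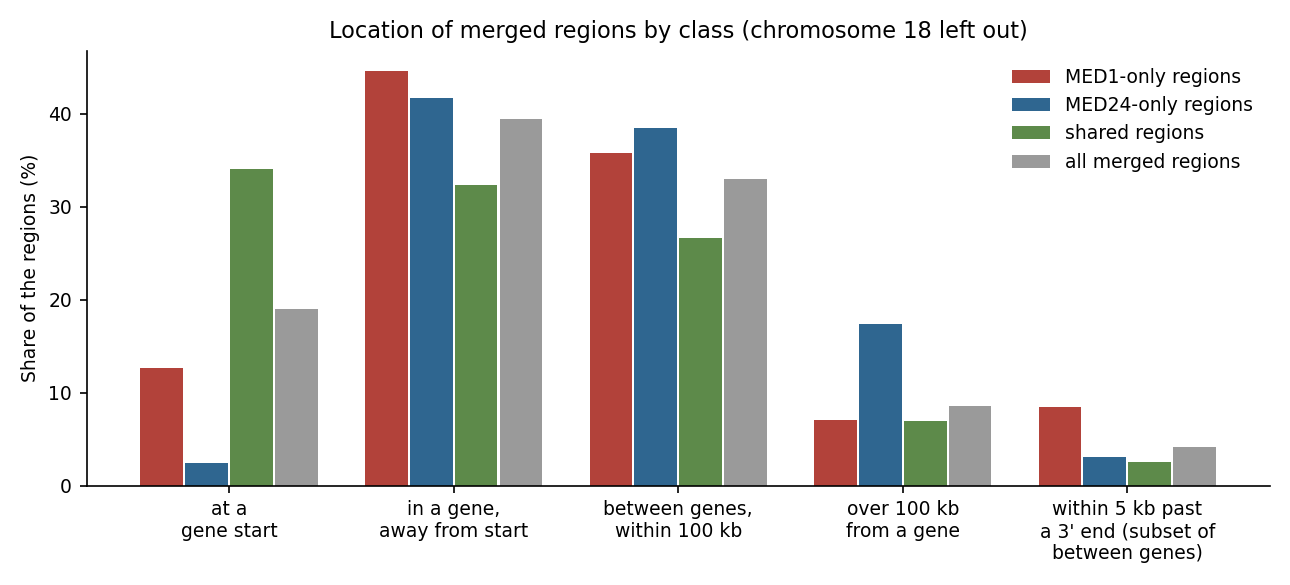
Share of regions in percent by location for MED1-only, MED24-only, shared and all merged regions; the first 4 locations add up to the whole, and the last is a part of the regions between genes. MED24-only regions are rarest at gene starts (2.48%) and most frequent over 100 kb from a gene (17.3%), and MED1-only regions are most frequent past 3′ ends (8.51%).

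The gap over all regions of the classes moved with the libraries and the score threshold, and kept its sign in the following. The difference of 10.1 percentage points became 3.96 without clone a of MED1, 4.43 without clone b of MED1, 16.1 without clone a of MED24, 16.3 with scores of at least 50 and 40.0 with 20000 peaks per list. The class counts rest on agreement of both clones. MED1-only regions numbered 6710 without clone a of MED1, 7447 without clone b of MED1 and 3997 without clone a of MED24. MED24-only regions numbered 5688 without clone a of MED1, 5647 without clone b of MED1, 7001 without clone a of MED24 and 9031 without clone b of MED24. MED1-only regions were the more numerous class where a MED1 library was left out. The class of the protein whose library is left out then needs no agreement of clones, so it grows by construction. With 20000 peaks per list there were 1861 MED1-only and 1875 MED24-only regions, nearly the same number. With the clones kept as pairs and classes drawn within each (replicate block), the means were 9275.5 MED1-only and 10571 MED24-only regions and a gap at gene starts of 6.67 points.

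A small group of MED24-only regions ranked among the strongest MED24 sites of the genome. There were 52 MED24-only regions with a mean percentile of at least 90, and 13 of at least 98. MED1-only regions had 10 and 0. The highest lay 1.18 kb from Plppr2, a phospholipid phosphatase-related gene (chr9:21950087-21950927, mm10), with scores of 3502 (clone a) and 3482 (clone b) for MED24 and no MED1 peak. The next, on chromosome 18 and over 100 kb from any protein-coding gene, scored 2615 and 2309. Inside Camta1, a calmodulin-binding transcription activator, a region at chr4:151288886-151289609 scored 2005 and 2133. Inside Trappc9, a vesicle trafficking gene, a region at chr15:72689674-72690222 scored 1814 and 1727. A region at chr4:127619843-127620278, with no protein-coding gene within 100 kb, scored 2176 and 1544. All of these stood above percentile 98 in both clones. The Rtbdn start was another, with scores of 1670 and 1721.

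The same sites were called again at 2 h. Of the 52, all 52 were called in both MED24 libraries at 2 h, and 3 were called in each MED1 library. The named ones near Plppr2, Camta1 and Trappc9 and the gene-distant one were called in both MED24 and in neither MED1 library at 2 h. Over all MED24-only regions the shares were lower: 42.0% and 49.99% were called in the 2 h MED24 libraries of clones a and b, and 15.8% and 17.5% in the MED1 libraries.

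By nearest gene, none had more than 6 MED24-only regions. Camta1 and Magi1, a membrane scaffold gene, had 6 each, of which 4 and 3 lay inside the gene. Limch1 and Plpp3 had 5 each, of which 3 and 1 lay inside. None of these 4 genes, picked for MED24-only regions, had a MED1-only region among their 21, 48, 10 and 19 merged regions. With 4.23% of all merged regions MED1-only, these counts are too small to read as an absence.

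Most of the 10 highest ranked MED1-only regions lay at tRNA genes, which RNA polymerase III transcribes, though few regions of the whole class did. Of the 10 highest ranked MED1-only regions 8 overlapped a tRNA gene, and of the 50 highest 16 did; of the 50 highest MED24-only regions none did. Near Trim7 a region at chr11:48853342-48854009 scored 631 and 573, near 1810010H24Rik a region at chr11:107012618-107013589 scored 599 and 467, and near Trim27 a region at chr13:21167324-21168379 scored 512 and 492. Near Btn1a1 a region at chr13:23466840-23467326 scored 801 and 504. The highest of the class was no tRNA site: it lay 60.8 kb from Axin2, the feedback inhibitor of Wnt signalling, and scored 593 and 890 (chr11:109011561-109012133). At 2 h these 5 regions were called in both MED1 libraries, and for MED24 3 of them were called in both clones and 2 in clone a. Of the 10 MED1-only regions with a mean percentile of at least 90, all 10 were called in each MED1 library at 2 h, and 8 and 5 in the MED24 libraries. In total 199 merged regions overlapped a tRNA gene. Of these 127 were shared, 30 were MED1-only, 0 were MED24-only and 42 were mixed. Regions at tRNA genes made up 1.27% of MED1-only, 0.546% of shared and 0.358% of all merged regions. Of the 30, 43.3% and 40% were called for MED24 at 2 h.

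Counted by gene, MED1 covered more tRNA genes than MED24 in each clone. Of the 408 annotated tRNA genes, 272 and 266 had a MED1 peak and 199 and 180 a MED24 peak. The means were 269 ± 4.24 and 189.5 ± 13.4 (SD, n = 2), and the groups did not overlap (exact two-sided permutation p = 0.333). At 2 h the numbers were 273 and 272 for MED1 and 215 and 229 for MED24, again without overlap. tRNA genes exist in near-identical copies, and how reads that fit several copies were placed is not given in the sources used here. The tRNA genes were singled out after the values were seen.

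MED1-only regions also came in longer runs than MED24-only regions, some of them along gene bodies. Joined over gaps of up to 12.5 kb, 21.8% of MED1-only regions stood in a run of at least 2, and 21 runs held at least 4 regions, 114 in all, with up to 11 in 1 run. For MED24-only regions 7.73% stood in runs, the longest held 3, and 0 held 4. Runs were looked for after the values were seen. The number of MED1-only regions in runs of at least 4 was 627 without clone a of MED1, 770 without clone b of MED1, 174 without clone a of MED24, 72 with scores of at least 50, 67 with 20000 peaks per list and 992.5 with the clones as pairs. By nearest gene, Kcnq1 and Mid1 had 11 MED1-only regions each, of 27 and 19 merged regions, Med24 8 of 11 and BC107364 6 of 23. Abt1, Srsf3, Tra2a and Zfp936 had 5 each, of 13, 15, 15 and 16. None of these 8 genes, picked for MED1-only regions, had a MED24-only region. With 6.96% of all merged regions MED24-only, these counts are too small to read as an absence.

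A run of 11 lay inside Kcnq1ot1, an antisense long noncoding RNA that is read from the paternal chromosome and silences neighbouring imprinted genes. Kcnq1ot1 (chr7:143213111-143296547) lies within Kcnq1, and ChIP has no strand, so the genes cannot be told apart. The run covers 19.9 kb at the far end of the noncoding RNA, with scores of 23 to 135. Along all of Kcnq1ot1, 18 and 15 regions were called for MED1 and 1 and 1 for MED24. That single MED24 region is the start, which was shared (chr7:143295571-143296701) and scored 179 and 166 for MED1 and 134 and 211 for MED24. At 2 h, 7 and 7 of the 11 were called for MED1 and 0 and 0 for MED24.

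Med24, the gene of the other subunit, held 7 MED1-only regions in its span and 1 beyond it. Their scores lay between 74 and 253. The region over the upper end of the span was shared (chr11:98728493-98729492), with scores of 308 and 353 for MED1 and 399 and 302 for MED24. At 2 h, 7 and 8 of the 8 were called for MED1 and 1 and 0 for MED24. Mid1, a ubiquitin ligase gene that spans the pseudoautosomal boundary of the X chromosome in mice, had 11 MED1-only regions with scores of 30 to 226. At 2 h 11 and 10 of these were called for MED1, and 0 and 7 for MED24, so clone b of MED24 went against the pattern there. Further runs lay at Srsf3, a splicing factor gene (5 regions), at Zfp936 (5) and 168.7 kb from Lama2 (8).

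**Figure D4:**
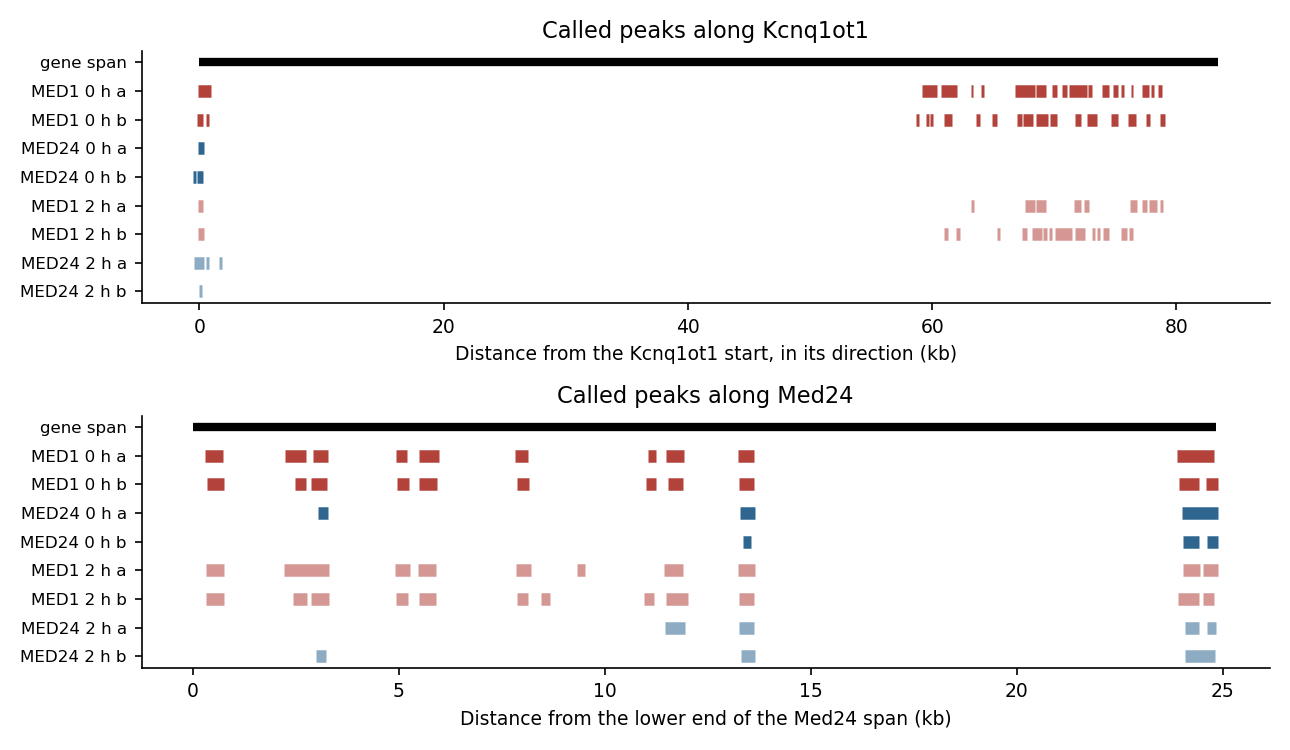
Called peaks along Kcnq1ot1 and Med24, in kb from the Kcnq1ot1 start in its direction and from the lower end of the Med24 span; each row is 1 library, red MED1 and blue MED24, paler at 2 h, and the black bar is the annotated gene. MED1 rows hold peaks through the far part of Kcnq1ot1 and through Med24, where MED24 rows hold few beyond the start of Kcnq1ot1 and the upper end of Med24.

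Regions shared by both proteins were ranked differently according to where they lay. Over all 23255 shared regions the median of MED1 percentile minus MED24 percentile was -0.89 points for clone a and -0.15 for clone b. MED1 ranked higher in both clones in 34.3% of them and MED24 in 38.9%. At the 7701 gene starts the median difference was 6.58 and 8.38 points, with MED1 higher in both clones at 4495 (58.4%) and MED24 at 1159 (15.05%). Over 100 kb from genes it was -6.76 and -5.62 points, with MED1 higher at 265 and MED24 at 896 of 1568 regions. Inside genes away from the start it was -3.20 and -2.40, and between genes within 100 kb -6.56 and -4.87. As percentiles per library, gene starts stood at 76.2 and 74.5 for MED1 and 67.0 and 63.3 for MED24 (75.3 ± 1.15 against 65.1 ± 2.58, SD, n = 2; exact two-sided permutation p = 0.333). Peaks at shared gene starts were wider for MED1, with medians of 882 and 866 bp against 768 and 718 bp. Over 100 kb from genes they were narrower for MED1, with 430 and 427 against 484.5 and 452 bp.

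**Figure D5:**
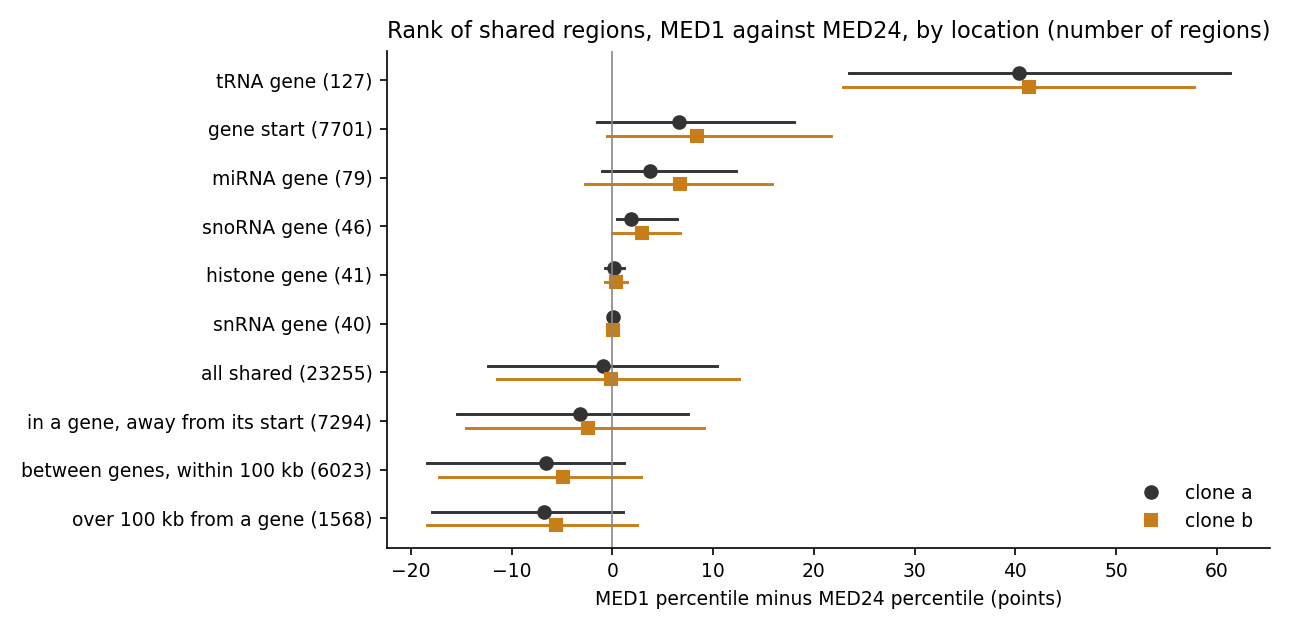
Difference in percentile (MED1 minus MED24, points) over shared regions by location, with the number of regions; markers are medians, circles clone a and squares clone b, and lines span the middle 50% of regions. tRNA genes stand at about 40 points and gene starts at 6.58 and 8.38, and locations away from starts lie below 0. Regions at snRNA and histone genes, which rank near the top of every list and so cannot differ much, lie near 0.

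The difference was largest at tRNA genes among the 10 locations compared. The 127 shared regions there stood at percentile 92.6 and 91.8 for MED1 and 52.5 and 48.9 for MED24, a median difference of 40.3 and 41.3 points. MED1 ranked higher in both clones at 122 of them and MED24 at 2. Small nuclear RNA genes are a classical site of strong Mediator binding. Their 40 regions stood at percentile 99.8 and 99.9 for MED1 and 99.7 and 99.6 for MED24. So close to the top a difference in percentile cannot be large, so its size cannot be set against that at tRNA genes. MED1 ranked higher in both clones at 22 of these regions and MED24 at 6. The 41 regions at histone genes differed by 0.15 and 0.35 points, and they too stood near the top, between percentiles 97.2 and 98.1. The 46 regions at snoRNA genes differed by 1.87 and 2.97 points and the 79 at miRNA genes by 3.71 and 6.72.

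At 2 h the direction at gene starts, far from genes and at tRNA genes was the same, and the size at each was smaller in both clones. Among shared regions called in all 8 libraries, the 7259 at gene starts differed by 2.25 and 1.80 points, the 888 far from genes by -1.97 and -3.87, and the 122 at tRNA genes by 38.7 and 31.9. The set of regions differs from that described at 0 h, and its own 0 h difference was not computed. A change with time was not tested.

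Rank order over shared regions was closer within a protein than between proteins. Across these regions Spearman's rho was 0.826 between the clones of MED1 and 0.853 between those of MED24. Between MED1 and MED24 it was 0.678 (clone a) and 0.670 (clone b). Regions are not independent replicates, and the proteins share clones, so these values are descriptions.

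The top of the ranking was common to both proteins and included regions at Klf4, Junb and Esrrb. The highest shared region was at chr4:55473606-55481533, 45.6 kb from Klf4, a pluripotency factor; it is 7928 bp wide and scored 3875 and 3734 for MED1 and 5776 and 5748 for MED24. It held the highest score of both MED24 lists. The next covered the Junb start, with 3988 and 3982 for MED1 and 5028 and 5406 for MED24. A region inside Esrrb, the orphan nuclear receptor that sustains self-renewal, scored 3124 and 3425 for MED1 and 5666 and 5666 for MED24. The Eapp start and a region 12.2 kb from Parp16, an ADP-ribosyltransferase of the endoplasmic reticulum, completed the highest 5. Scores are compared here within a list only.

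Single shared regions stood far apart in rank. At a region inside Enpp2, which encodes the lysophospholipase autotaxin (chr15:54854666-54855327), MED1 scored 1984 and 2043 and MED24 50 and 49, a gap of 87.9 and 90.1 percentile points. The next 4 with MED1 higher, near Fcgr4, H4c8, Gpx5 and Olfr1368, all overlapped tRNA genes. In the other direction, a region inside Unc5a, a netrin receptor gene (chr13:54970579-54971501), scored 81 and 73 for MED1 and 2796 and 2674 for MED24. A region inside Foxn1, the transcription factor of thymic epithelium (chr11:78370264-78370886), scored 36 and 39 for MED1 and 216 and 220 for MED24. Others of this kind lay inside Wdfy3, an autophagy adaptor, and 29.8 kb from Ctnna3, an alpha-catenin. The last, at chr13:90744976-90745519 and with no protein-coding gene within 100 kb, scored 44 and 44 for MED1 and 227 and 292 for MED24, and no 2 h library had a peak there.

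The pluripotency factors, which mark the labelled cell type, all had shared regions. Shared regions numbered 2 of 7 at Pou5f1, 8 of 17 at Sox2, 4 of 17 at Nanog, 6 of 10 at Klf4 and 12 of 30 at Esrrb, where 41.8% of all merged regions were shared. MED1-only and MED24-only regions numbered 1 and 1 at Sox2, 2 and 1 at Nanog, 2 and 0 at Esrrb, and 0 and 0 at Pou5f1 and Klf4. Both shared regions of Pou5f1 ranked higher for MED24 in both clones, with median differences of -3.92 and -6.28 points, and 8 of the 12 of Esrrb did. At Klf4 3 ranked higher for MED1 and 2 for MED24. The 12 genes of a fibroblast list had 23 regions, of which 3 were shared (13.0%, against 42.6% of all assigned regions). The start of Med1 was shared, with percentiles of 95.7 and 97.7 for MED1 and 79.5 and 76.4 for MED24.

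Among 18 gene lists, ribosomal protein genes had the most MED1-only regions by count, and mesendoderm genes the highest share. Each region was given to its closest protein-coding gene if that lay within 100 kb. Over all 50687 assigned regions, 4.30% were MED1-only and 6.29% MED24-only. The 36 ribosomal protein genes had 15 MED1-only (12.2%) and 2 MED24-only regions among 123. The 15 lay at 10 genes, with 3 at Rpl3 and 2 each at Rpl11, Rplp1 and Rps7; 8 were inside the gene away from its start, 4 within 5 kb past the 3′ end and 0 at the start. They were weak, with a median percentile of 26.0, and 6 and 9 of them were called in the 2 h MED1 libraries. Shared regions of this list ranked higher for MED1 by 5.42 and 5.57 points at the median, and 54.5% of them lay at gene starts.

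The other lists had at most 9 MED1-only and 10 MED24-only regions each, so their shares rest on small counts. Mesendoderm genes had 6 MED1-only (13.95%) and 1 MED24-only (2.33%) of 43 regions, with 2 MED1-only at Lefty2, a Nodal antagonist. Neural genes had 6 (9.52%) and 2 (3.17%) of 63, with 3 MED1-only at Sox1, a neural progenitor factor. Primitive endoderm genes had 1 (1.43%) and 8 (11.4%) of 70, with 2 MED24-only at Sparc, a matrix protein gene. Core pluripotency genes had 9 (5.88%) and 7 (4.58%) of 153, and naive pluripotency genes 8 (4.21%) and 6 (3.16%) of 190. Mediator complex genes had 8 (8.42%) and 6 (6.32%) of 95; the 8 were those of Med24, and Med12l had 3 MED24-only regions. Nuclear receptor genes had 9 (6.77%) and 10 (7.52%) of 133, near the shares over all assigned regions.

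Shared regions at these genes differed in rank and in how many lay at gene starts. At core pluripotency genes 38 of 66 ranked higher for MED24 and 12 for MED1, with 16.7% at gene starts. At naive pluripotency genes it was 49 and 13 of 85 (9.41% at gene starts), and at genes of ERK feedback 42 and 11 of 67 (20.9%). Over all shared regions MED24 ranked higher in 38.9% and MED1 in 34.3%. Inside genes away from the start it was 45.8% and 27.1%, and between genes within 100 kb 56.2% and 16.8%. The lists mix these locations, and a share matched for location was not computed. At Mediator complex genes 10 of 44 ranked higher for MED24 and 23 for MED1, and 50% of these lay at gene starts. Over all assigned shared regions 35.5% did.

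Some regions of 1 class at 0 h were called for the other protein at 2 h. Of MED1-only regions, 26.6% and 32.7% were called in the MED24 libraries of clones a and b at 2 h, and 54.3% and 58.6% in the MED1 libraries. For at least 1 library of the other protein the share was 39.1% of MED1-only and 20.6% of MED24-only regions, where 62.0% of all merged regions had a MED24 peak and 59.3% a MED1 peak at 2 h. No library at 2 h had a peak in 27.4% of MED1-only, 42.0% of MED24-only and 8.50% of shared regions, and in 30.9% of all. The 2 h libraries come from other cultures with 4OHT added, so treatment and a repeat of the assay cannot be told apart.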

How the data were processed

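ChIP-seq peak lists of MED1 and MED24 from clones a and b were analysed, grouped by the sample titles. Per the submitters' processing notes the tools were MACS2, Bowtie2 and bedtools, on mm10. Not given in the sources used here are their versions and settings, the treatment of reads that fit several places, and any use of the inputs. Each library has its own list. In the MED1 lists the authors deposited for each peak a score, the −log10 of p and of q, and the enrichment as a ratio; the score was 10 times −log10 q, rounded down, in 100% of MED1 peaks. The deposited MED24 lists give position, name and score only, and the same meaning of the score was assumed. Names in the MED24 lists carry FLAG and the name of another cofactor, EP300, and the labels were followed. Scores are the authors' own and were used for ranks and filters inside each list. Depth is unknown, as the lists hold no read numbers, and the number of clones limits precision.

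Peaks of the 19 autosomes and the sex chromosomes were merged at 1 bp overlap with Python 3.11.15, numpy 2.4.6 and pandas 2.3.3; where a library had several peaks in a region, the highest counted. Gene spans, tRNA genes and promoter windows came from RefSeq tables of GRCm38.p6. The windows cover 79.9% of protein-coding genes, so some starts, that of Med24 among them, count as inside genes. The 408 tRNA genes and 298 list genes were all found. Values per library were set against each other with the exact permutation test (two-sided); regions were given no test. Merging and classing were tested on simulated data. Clones pair the proteins per the labels, and rank correlations were higher within a clone (0.678, 0.670) than across clones (0.629, 0.647). The text names the 5 highest ranked regions of each class by the mean percentile of the clones, the 5 shared regions with the greatest difference in each direction (by the clone with the lesser one), the 5 genes with most regions of a class, the subunits' own genes and 5 pluripotency genes, leaving out chromosome 18 where promoters are concerned; 1 gene that this rule names is not reported here. Members and lists were chosen with earlier results of these data known. Alternatives were: leaving out each library, scores of at least 50, 20000 peaks per list, classes within a clone, an overlap of at least 50% of the shorter peak, windows of 200 bp either side of the peak middle, and assignment within 20 kb.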

Additional observations from a re-analysis of the deposited data

Results flagged for a closer look

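The highest score of a list went in opposite directions at the 2 times. At 0 h the MED1 maximum was below the MED24 maximum: MED1 minus MED24 was -1350 for clone a and -1437 for clone b, a mean difference of -1393.5. At 2 h it was 634 and 199. The difference between the times was not tested. A single peak sets each maximum, and the meaning of the score is stated only for the MED1 lists by their own columns.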

How the results depend on the processing

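Scores carry no read depth, so only positions and ranks within lists were varied. Differences kept their sign under every alternative tried, except 3 gene lists that turned and 4 that came to 0. Counts, shares and percentiles have no sign to lose. The order of the classes did turn. MED1-only regions outnumbered MED24-only regions without clone a (6710 against 5688) or b (7447 against 5647) of MED1. Their median percentile was higher without clone a (30.9 against 24.5) or b (30.1 against 24.8) of MED24. With 20000 peaks per list it was also higher (30.9 against 30.3). The alternatives for percentile differences, runs, tRNA genes and 3′ ends were chosen after seeing the data. Values that moved beyond a set limit follow. For counts the limit was a fixed ratio. For shares it was a binomial interval over regions, which are not replicates, and the limit at gene starts also served for 3′ ends. For other values it was the SD of the clones. Differences per library were judged by direction only. The cause was not tested, except that fewer lists or peaks decide the classes by construction.

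With the clones as pairs (replicate block), there were 9275.5 MED1-only and 10571 MED24-only regions, at median percentiles of 21.4 and 26.1, and 28.6% of the latter had a MED1 peak at 2 h. The gap at gene starts was 6.67 points and past 3′ ends 3.94, 992.5 MED1-only regions stood in runs of at least 4, and the percentile difference was 42.9 at tRNA genes and -5.42 far from genes. Per-library differences do not change under the pairing (gene-start share of peaks 2.79 points).

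With 20000 peaks per list, MED1-only regions numbered 1861, MED24-only regions 1875 and shared regions 12192, so the only-classes were of nearly equal size. Their median percentiles were 30.9 (MED1-only) and 30.3 (MED24-only), and 34.2% and 18.3% had a peak of the other protein at 2 h. The gap was 40.0 at gene starts and 0.0972 past 3′ ends, and 67 regions stood in runs. Percentile differences were 10.9 at gene starts, 41.7 at tRNA genes and -7.49 far from genes. The difference in peak number cannot be had at equal length.

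With scores of at least 50, 43.5% of MED1-only and 22.3% of MED24-only regions had a peak of the other protein at 2 h. The gap was 16.3 at gene starts and 3.5 past 3′ ends, the median MED24-only percentile 33.1, the regions in runs 72, and the percentile difference 43.2 at tRNA genes and -7.53 far from genes. With windows around peak middles, 22.7% of MED24-only regions had a MED1 peak at 2 h and tRNA genes differed by 42.8 points. With an overlap of at least 50%, the median MED1-only percentile was 29.8.

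Leaving out each library in turn gave 3396 to 7447 MED1-only and 5647 to 9031 MED24-only regions, at median percentiles of 20.5 to 30.9 and 24.5 to 36.0. The share with a peak of the other protein at 2 h was 30.2% to 52.9% of MED1-only and 21.5% to 30.6% of MED24-only regions. The gap was 3.96 to 16.1 at gene starts and 3.54 to 5.50 past 3′ ends, regions in runs 159 to 770, and the percentile difference 40.1 to 43.0 at tRNA genes and -6.96 to -5.25 far from genes.

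Assigned within 20 kb, the net of MED1-only minus MED24-only regions turned to 1 for immediate early (-2 within 100 kb), nuclear receptor (-1) and trophectoderm genes (-2), and 10 of 18 lists had more MED1-only regions, as within 100 kb.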

Other observations

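For the gene lists not described above, MED1-only and MED24-only regions are given beside the 4.30% and 6.29% of all assigned regions. Trophectoderm genes had 7 (7.14%) and 9 (9.18%) of 98 regions, with 4 MED1-only regions at Tfap2c and 3 MED24-only regions at Tfap2a, both AP-2 family factors. Cohesin and loading genes had 1 (2.22%) and 4 (8.89%) of 45, of which 3 MED24-only regions lay at Wapl, the cohesin release factor. LIF and STAT3 pathway genes had 4 (5.26%) and 1 (1.32%) of 76, with 3 of the MED1-only regions at Spp1, the osteopontin gene. Formative epiblast genes had 2 (2.38%) and 6 (7.14%) of 84, with 2 MED24-only regions at Otx2, a homeobox factor of the early epiblast. ERK feedback genes had 4 and 3 of 132, immediate early genes 4 and 6 of 101, and Wnt target and TCF genes 4 and 5 of 72. Cell cycle and DNA replication genes had 2 and 1 of 43, housekeeping genes 1 and 0 of 54, and fibroblast genes 1 and 2 of 23. Single regions decide most of these shares.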
